A study of Homo sapiens with 12 samples.

Results

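Aminoacyl-tRNA synthetases are the enzymes that join each amino acid to its own tRNA, the first step of protein synthesis. The 36 genes described here are synthetase genes taken by name from the 58233 genes of the deposited tables, whatever their values. Of these, 16 have names ending in 2 and encode the mitochondrial enzymes. The other 20 encode enzymes of the cytosol or, as KARS and GARS do, of both compartments. Their transcripts were measured by RNA sequencing of total RNA in 12 libraries of K562, an established human leukaemia cell line with erythroid features. Every library came from CRISPR/Cas9 work in that line: 3 parental K562 clones, 3 clones in which the mutant allele of ASXL1 had been disrupted, 2 pools given the SCR control guide, 2 FOXK1 knockout pools and 2 FOXK2 knockout pools. A clone descends from 1 cell, whereas a pool mixes cells with different edits, and the share of edited cells is not given in the sources used here. The series asks which genes respond to loss of mutant ASXL1, a chromatin regulator, and of FOXK1 and FOXK2, paired forkhead transcription factors.

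Synthetases fall into 2 structural classes with unrelated catalytic folds. Several cytosolic enzymes, from isoleucine, leucine, methionine, glutamine, arginine, lysine and aspartate to the fused glutamate and proline enzyme EPRS, are held together in the multisynthetase complex on the scaffolds AIMP1, AIMP2 and EEF1E1 (AIMP3). When an amino acid runs short, uncharged tRNA activates the kinase GCN2 (EIF2AK4), and translation of the transcription factor ATF4 rises. ATF4 binds C/EBP-ATF response elements (CARE) and is generally described as inducing many cytosolic synthetase genes, together with ASNS, TRIB3, CHAC1 and SESN2, while most mitochondrial synthetase genes are not described in that way.

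The libraries carried the markers of their label. All 12 K562 markers examined were at 1 FPKM (fragments counted per unit of transcript length and of library size) or more in every library, while the 4 granulocyte and monocyte markers summed to at most 0.526 FPKM. Fibroblast markers summed to 0.341 to 1.55 FPKM, lymphocyte markers to 20.9 to 69.9 FPKM, of which CD3D was 19.2 to 67 FPKM, and epithelial markers to 66 to 105 FPKM, mostly EPCAM. ASXL1 itself fell from 49.4 ± 9.36 to 29.4 ± 2.53 FPKM (SD, n = 3 and 3; limma, adjusted p = 0.0142) and FOXK2 from 41.7 ± 1.34 to 26.5 ± 1.45 FPKM (SD, n = 2 and 2; limma, adjusted p = 0.0445). The FOXK1 transcript had means of 6.25 ± 0.0184 FPKM with SCR and 5.83 ± 0.345 FPKM with the FOXK1 guide (SD, n = 2 and 2) and did not pass the test; an edit need not lower its transcript. Summed FPKM ran from 824692 to 975657 per library, and read depth is unknown. Nothing in the labels says that clones or pools of a group were cultured separately, so p-values measure the spread between these libraries only. In bulk RNA, fewer cells with a transcript and less of it per cell cannot be told apart.

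Every one of the 36 synthetases was expressed, and the cytosolic enzymes were far above the mitochondrial ones. Median levels over the 12 libraries, per unit of transcript length, ran from 37.77 FPKM (FARSB, the beta subunit of phenylalanyl-tRNA synthetase) to 401.8 FPKM (WARS, tryptophanyl-tRNA synthetase) among the cytosolic or shared members, and 15 of these 20 reached 100 FPKM. MARS for methionine (300.1 FPKM), QARS for glutamine (272.2 FPKM), KARS for lysine (235.4 FPKM) and SARS for serine (234.9 FPKM) followed WARS. Mitochondrial members ran from 5.88 FPKM (PARS2, for proline) to 69.02 FPKM (IARS2, for isoleucine), and 0 of 16 reached 100 FPKM. Those 2 ranges met only where IARS2 exceeded CARS (67.35 FPKM) and FARSB. The subunits of the cytosolic phenylalanine enzyme, which assemble together, were unequal: FARSA had a median of 169.2 FPKM. DARS (aspartate) and VARS2 (mitochondrial valine) varied least, with a highest library 1.16 and 1.15 times the lowest, and WARS varied most, at 3.45 times.

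Summed over the class, cytosolic or shared transcripts were at 3731 ± 169 FPKM in the parental clones, 3813 ± 173 in the mutant ASXL1 knockout clones, 3228 ± 51.7 in the SCR pools, 2695 ± 110 in the FOXK1 pools and 2684 ± 57.2 in the FOXK2 pools (SD, n = 3, 3, 2, 2 and 2). The FOXK1 pools, at 2618 and 2773 FPKM, and the FOXK2 pools, at 2644 and 2725 FPKM, all lay below the SCR pools at 3191 and 3264 FPKM. Summed mitochondrial FPKM went the other way in the pools, at 389.5 ± 8.06 FPKM with SCR, 414.2 ± 3.43 with FOXK1 knockout and 413.9 ± 3.85 with FOXK2 knockout. In parental and knockout clones the sums were 394.5 ± 7.53 and 387.2 ± 2.26 FPKM. The 4 FOXK pools, at 411.2 to 416.7 FPKM, lay above both SCR pools, at 383.8 and 395.2 FPKM. As shares of each library's summed FPKM, the mitochondrial ranges overlapped. They were 0.0407% to 0.0431% with SCR, 0.0427% to 0.0431% with FOXK1 and 0.0429% to 0.0448% with FOXK2 knockout. Cytosolic shares stayed below SCR (0.338% to 0.356%), at 0.274% to 0.284% and 0.272% to 0.297%. In ASXL1 knockout clones both shares exceeded the parental ones: 0.433% to 0.483% against 0.393% to 0.417%, and 0.0458% to 0.0471% against 0.0406% to 0.0438%. These sums and shares were not tested. After median-ratio scaling the mitochondrial means were 382.7 FPKM with SCR, 401.7 with FOXK1 and 406.4 with FOXK2 knockout, and 389.9 and 400.8 FPKM in parental and knockout clones, so the order of the clone groups turned round.

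**Figure D1:**
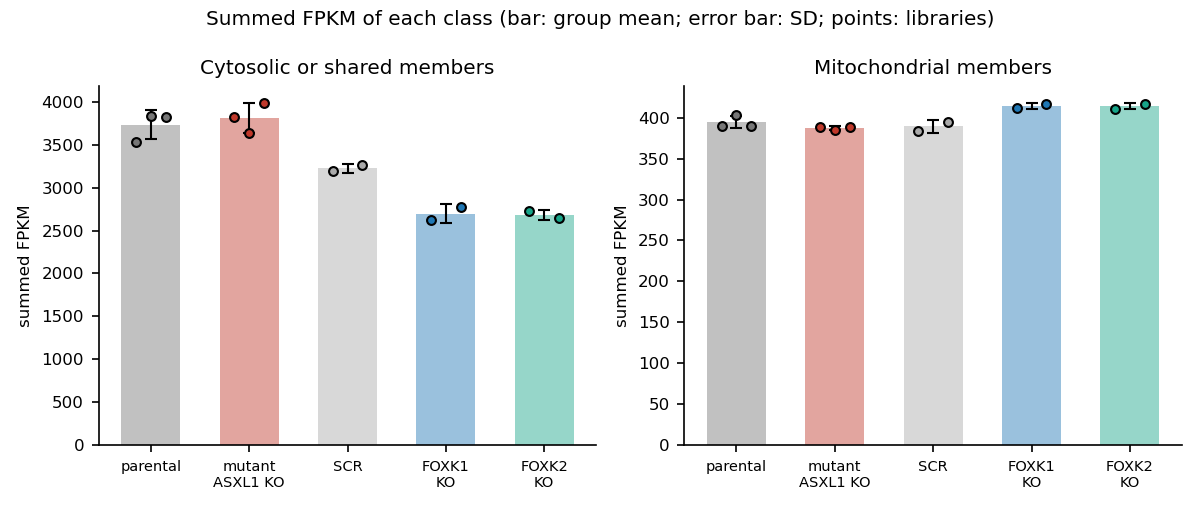
Summed FPKM of the 20 cytosolic or shared and the 16 mitochondrial synthetase transcripts in each of the 12 libraries, with bars for group means and error bars for the SD over 2 or 3 libraries. The cytosolic sum of the 4 FOXK pools lies between 2618 and 2773 FPKM, below both SCR pools, and their mitochondrial sum lies above both. As a share of each library's summed FPKM, the mitochondrial ranges overlap.

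The promoters of these genes were read for the ATF4-type element because many cytosolic synthetase genes are generally described as ATF4 targets. Of the 36 members, 30 had at least 1 promoter window (250 bases before to 50 after a start site) in RefSeq GRCh38.p14, with 39 windows in all. The CARE letters TGATGNAAN, on either strand, occurred in 1268 of all 35116 windows (3.61%) and in 1215 of all 27305 genes (4.45%). They occurred in 7 of the 10 cytosolic members with a window among those generally described as ATF4-induced, in 0 of the 6 other cytosolic members with a window, and in 1 of 14 mitochondrial members. The matches are shown with 10 bases on each side, in the direction of transcription, with the 9 bases of the motif in capitals.
AARS (chr16:70289676-70289704, minus strand): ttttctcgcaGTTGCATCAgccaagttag
CARS (chr11:3057408-3057436, minus strand): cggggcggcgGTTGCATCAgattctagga
GARS (chr7:30594834-30594862, plus strand): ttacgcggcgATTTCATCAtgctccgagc
IARS (chr9:92293693-92293721, minus strand): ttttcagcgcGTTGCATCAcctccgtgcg
MARS (chr12:57488053-57488081, plus strand): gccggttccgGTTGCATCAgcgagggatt
NARS (chr18:57621804-57621832, minus strand): ctacgctctcTGATGCAACgccggaatcg
TARS (chr5:33440956-33440984, plus strand): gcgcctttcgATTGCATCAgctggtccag
YARS2 (chr12:32756076-32756104, minus strand): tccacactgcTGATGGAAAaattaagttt

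In AARS, CARS, IARS, MARS and NARS the matched letters, read on the strand that carries them, were TGATGCAAC. TARS had TGATGCAAT, GARS TGATGAAAT and YARS2, the mitochondrial tyrosine enzyme, TGATGGAAA. Measured from the start site to the first motif base, CARS (-3), MARS (-5), IARS (-14), GARS (-34), TARS (1) and NARS (14) lay close to it, and AARS (-188) and YARS2 (-197) lay further upstream. WARS and SARS, each with 2 windows, held no match, and LARS, VARS and YARS had no window in the table. The forkhead letters GTAAACA, on either strand, occurred in 3.42% of all windows and 4.19% of all genes, and among the 30 members in CARS alone. That match lay in its other window, and is shown with its 7 motif bases in capitals.
CARS (chr11:3041077-3041103, minus strand): tctgttgaatTGTTTACactaaacaca

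A match of letters is a description and not a measured binding site.

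In the FOXK1 knockout pools, 4 cytosolic synthetase transcripts fell and 1 rose, and no mitochondrial one passed the test. WARS, CARS (cysteine), SARS (serine) and AARS (alanine) fell to between 0.513 and 0.778 of the SCR level of FPKM + 1. RARS (arginine) rose. Levels were compared as log2(FPKM + 1) with limma (two-sided), and calls are genes with an adjusted p under 0.05 after Benjamini-Hochberg adjustment over all genes tested. Of the 13697 genes tested, 1.15% were called lower and 0.679% higher (1.83% in all), against 4 and 1 of 36 synthetases.

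WARS (ENSG00000140105, GRCh38 chromosome 14, 100333788 to 100376805, minus strand), which is also known as an interferon-induced gene, measured 341.3 and 353.6 FPKM with SCR and 178.1 and 177.7 FPKM with FOXK1 knockout. Its log2 fold change was -0.96 (SE 0.04, limma adjusted p = 0.00691), so the FOXK1 pools held 0.513 of the SCR level of FPKM + 1. The gap between the groups was many times the spread within either. CARS (ENSG00000110619, chromosome 11, 3000922 to 3057613, minus strand) was at 63.93 and 63.24 FPKM with SCR and at 39.72 and 41.02 FPKM with FOXK1 knockout, a log2 fold change of -0.64 (SE 0.05, limma adjusted p = 0.0249). SARS (ENSG00000031698, chromosome 1, 109213918 to 109238169, plus strand) went from 220.8 and 223.3 FPKM to 151 and 156 FPKM, a log2 fold change of -0.53 (SE 0.04, limma adjusted p = 0.0249). Both genes had pools that agreed closely within each group and did not overlap between groups. Both FOXK1 pools lay below both SCR pools for 23.6% of all genes tested. AARS (ENSG00000090861, chromosome 16, 70252295 to 70289543, minus strand) went from 139.3 and 141.8 FPKM to 108.5 and 109.8 FPKM, a log2 fold change of -0.36 (SE 0.04, limma adjusted p = 0.0389).

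RARS (ENSG00000113643, chromosome 5, 168486445 to 168519299, plus strand), the arginine enzyme of the multisynthetase complex, was the exception. It measured 68.42 and 70.34 FPKM with SCR and 89.81 and 91.03 FPKM with FOXK1 knockout (log2 fold change 0.38, SE 0.05, limma adjusted p = 0.0436). Both FOXK1 pools were the highest of the 12 libraries for this gene.

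The FOXK2 knockout pools, set against the same 2 SCR pools, showed 4 lower cytosolic synthetases, 0 higher and no mitochondrial call. Of 13672 genes tested, 0.87% were called lower and 0.146% higher (1.02% in all). WARS was at 189.4 and 189.7 FPKM in the FOXK2 pools, a log2 fold change of -0.87 from SCR (SE 0.05, limma adjusted p = 0.0167). SARS was at 155.8 and 154.6 FPKM (log2 fold change -0.51, SE 0.05, limma adjusted p = 0.0298), and CARS at 42.5 and 42.4 FPKM (-0.57, SE 0.05, limma adjusted p = 0.0312). In all 3 genes both FOXK2 pools lay below both SCR pools, as for 24.8% of all genes tested, and the FOXK2 pools nearly coincided.

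GARS (ENSG00000106105, chromosome 7, 30594681 to 30634033, plus strand), the glycine enzyme of cytosol and mitochondria, was the fourth. It was at 151.2 and 150.9 FPKM with SCR and at 105.1 and 107.9 FPKM with FOXK2 knockout (log2 fold change -0.50, SE 0.05, limma adjusted p = 0.0325). In the FOXK1 pools GARS was at 104.6 and 120.1 FPKM, a log2 fold change of -0.43 with a limma adjusted p of 0.0769. AARS was at 120.1 and 117.3 FPKM in the FOXK2 pools (-0.24, limma adjusted p = 0.114) and RARS at 84.33 and 87.92 FPKM (0.31, limma adjusted p = 0.0958). All of these FOXK values lay outside the SCR range, below it for GARS and AARS and above it for RARS. Of all genes tested, 24.8% lay wholly below the SCR range with FOXK2 knockout and 29.2% wholly above it.

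**Figure D2:**
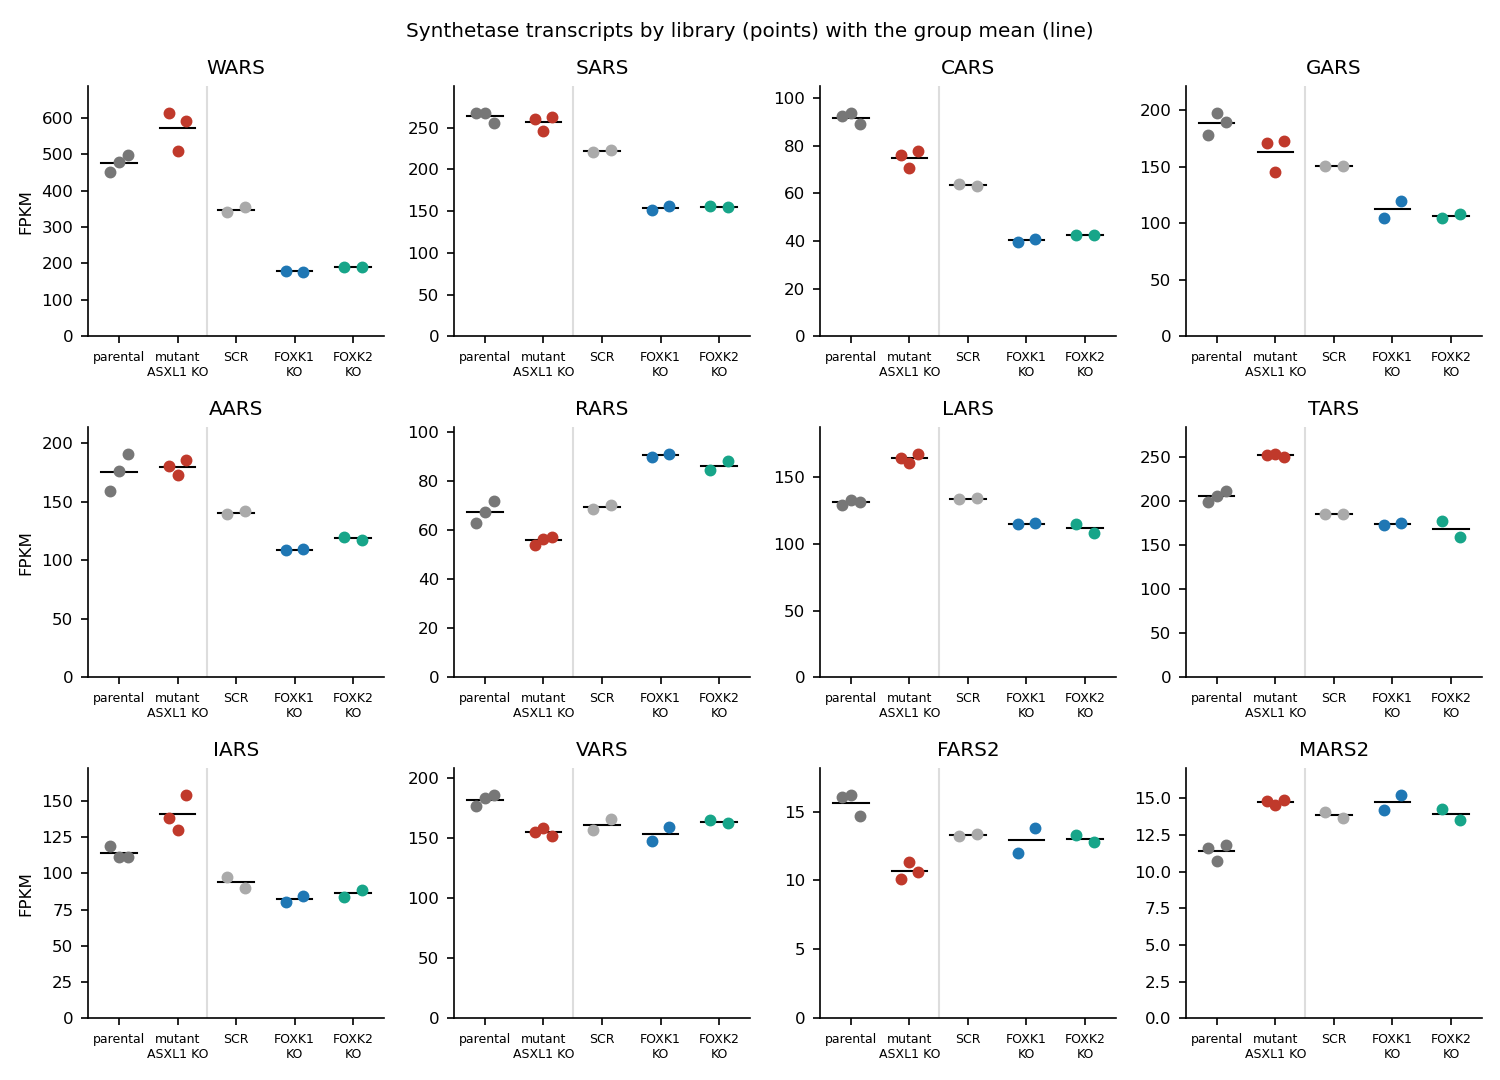
FPKM of 12 synthetase transcripts in each library (points) with group means (lines), on linear axes starting at 0; the vertical line separates clones from pools. WARS, SARS, CARS and GARS are lower in all 4 FOXK pools than in both SCR pools, RARS is higher, and LARS, TARS and FARS2 separate the knockout clones from the parental clones.

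MARS (chromosome 12, 57475445 to 57517569, plus strand) had fold changes close in size to those of WARS and did not pass the test. It was at 328.4 and 377.2 FPKM with SCR, at 157 and 230.3 FPKM with FOXK1 knockout and at 219.1 and 157.1 FPKM with FOXK2 knockout. The log2 fold changes were -0.88 (95% interval -1.40 to -0.36, limma adjusted p = 0.103) and -0.92 (-1.38 to -0.46, limma adjusted p = 0.106). The FOXK pools lay below the SCR pools, but the replicates of each group lay far apart. In the authors' deposited table MARS had log2 fold changes of -0.43 and -0.41 in these comparisons, with adjusted p-values of 5.73e-13 and 5.82e-09. The MARS gene shares 355 exon bases, 5.05% of its own, with the stress gene DDIT3 on the opposite strand, and the library preparation is not stated to keep strand.

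The members that fell are all among the enzymes generally described as ATF4-induced, a group put together with falls of ATF4-pathway genes in these pools already known, so its direction is not independent evidence. Among those 13 cytosolic members (AARS, CARS, EPRS, GARS, IARS, LARS, MARS, NARS, SARS, TARS, VARS, WARS and YARS), 4 fell with FOXK1 knockout and 4 with FOXK2 knockout, and none rose. The median log2 fold change was -0.36 with FOXK1 knockout, with 13 of 13 values negative, and -0.26 with FOXK2 knockout, with 12 of 13 negative. The pools did not overlap and the FOXK pools were lower for 12 and 11 of the 13, against 23.6% and 24.8% of all genes tested. Over all genes the medians were 0.02 and 0.01. Several of the 13 were close to 0 with FOXK1 knockout, among them VARS (-0.07), TARS (-0.09), NARS (-0.10) and EPRS (-0.11).

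The 7 other cytosolic members (DARS, FARSA, FARSB, HARS, KARS, QARS and RARS) had medians of 0.14 and 0.10, with 6 and 5 of 7 values positive; RARS with FOXK1 knockout was the only call. Mitochondrial members had medians of 0.06 and 0.05 and no limma call in either direction; the authors' deposited table calls RARS2 higher with both knockouts and EARS2 higher with FOXK2 knockout. With FOXK1 knockout, 9 of 16 mitochondrial members were higher in both FOXK1 pools than in both SCR pools and 1 was lower, against 31.3% and 23.6% of all genes. With FOXK2 knockout it was 6 and 1, against 29.2% and 24.8%. The largest mitochondrial values were those of RARS2 (arginine), 0.34 and 0.28, and LARS2 (leucine), 0.23 and 0.33, none past the test.

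**Figure D3:**
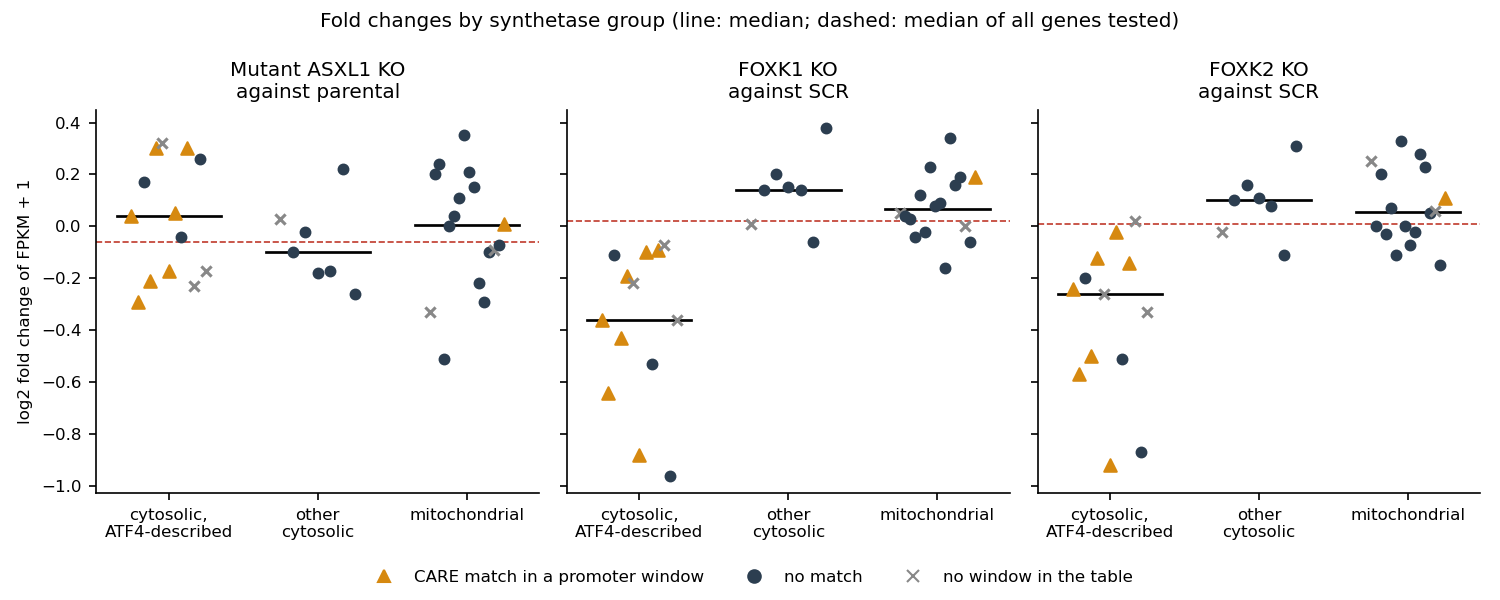
Log2 fold change of FPKM + 1 of each of the 36 members in the 3 comparisons, by group, with the group median (line) and the median of all genes tested (dashed); triangles have a CARE match in a promoter window, circles have none, and crosses have no window. The ATF4-described group sits at medians of -0.36 and -0.26 in the FOXK1 and FOXK2 comparisons, the other cytosolic group at 0.14 and 0.10, and in the ASXL1 comparison the medians are 0.04 and -0.10.

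Within the ATF4-described group, members with and without a CARE match overlapped in fold change. The 7 members with a match ran from -0.88 (MARS) to -0.09 (TARS) with FOXK1 knockout. WARS and SARS, with windows but no match, were at -0.96 and -0.53, and EPRS, likewise without one, was at -0.11. YARS, LARS and VARS, which had no window, were at -0.36, -0.22 and -0.07. YARS2, the mitochondrial member with a match, was at 0.19 with FOXK1 knockout and 0.11 with FOXK2 knockout, neither past the test.

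The same values were read by structural class and by complex. Of 10 class I cytosolic members, 2 fell and 1 rose with FOXK1 knockout (median -0.20), and of 10 class II members 2 fell (median -0.04). Of the 8 members of the multisynthetase complex, 0 fell and 1 rose with FOXK1 knockout, and none was called with FOXK2 knockout. The 12 cytosolic enzymes outside the complex held all 4 falls in each knockout, where 1.15% (FOXK1) and 0.87% (FOXK2) of all genes fell. Ranges were less divided. Both FOXK1 pools lay below both SCR pools for 4 of 8 complex and 8 of 12 other members, and above for 2 and 3. Of all genes tested, 23.6% lay below in this way and 31.3% above. With FOXK2 knockout it was 6 and 7 below, and 2 and 2 above, against 24.8% and 29.2% of all genes. Medians were -0.08 and -0.23 with FOXK1, and -0.11 and -0.19 with FOXK2 knockout. The complex members that are also in the ATF4-described group, EPRS, IARS, LARS and MARS, had FOXK1 values of -0.11, -0.19, -0.22 and -0.88.

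The FOXK calls rest on 2 pools a group. Leaving out any 1 of the 4 libraries of a comparison left 0 of all genes called, with the adjusted p of WARS as high as 0.315 (FOXK1) and 0.436 (FOXK2), while each called member kept its sign in all 13 alternative settings. The call itself was kept in 9 of 13 settings by WARS with FOXK1 knockout, in 7 by WARS with FOXK2 knockout, and in 6 by each of the other called members, which lost it also with no filter on low values, no variance trend and the replicate block. The authors' deposited table called more: 9 members lower and 4 higher with FOXK1 knockout, where it calls 10.5% and 9.26% of the genes tested here, and 10 lower and 3 higher with FOXK2 knockout, where it calls 10.9% and 6.84%. In that table the lower members with FOXK1 knockout were AARS, CARS, GARS, IARS, LARS, MARS, SARS, WARS and YARS, all in the ATF4-described group, and FOXK2 knockout added QARS. The higher members in the authors' deposited table were FARSB, HARS, RARS and RARS2 with FOXK1 knockout and EARS2, RARS and RARS2 with FOXK2 knockout.

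Comparing the pools directly, the FOXK2 and FOXK1 knockouts did not differ detectably in any synthetase. In a joint fit of the 6 pools, 0 of 36 members were called (limma; lowest adjusted p 0.76), against 0.00711% of genes called higher and 0.0285% lower (0.0356% in all), and 1 member, AARS, had an unadjusted p under 0.05. The 95% intervals of the FOXK2 minus FOXK1 difference lay between -0.61 and 0.64 on the log2 scale, so differences of that size are not excluded for the most variable members. The 3 members that fell in both comparisons were CARS, SARS and WARS; both comparisons use the same SCR pools.

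**Figure D4:**
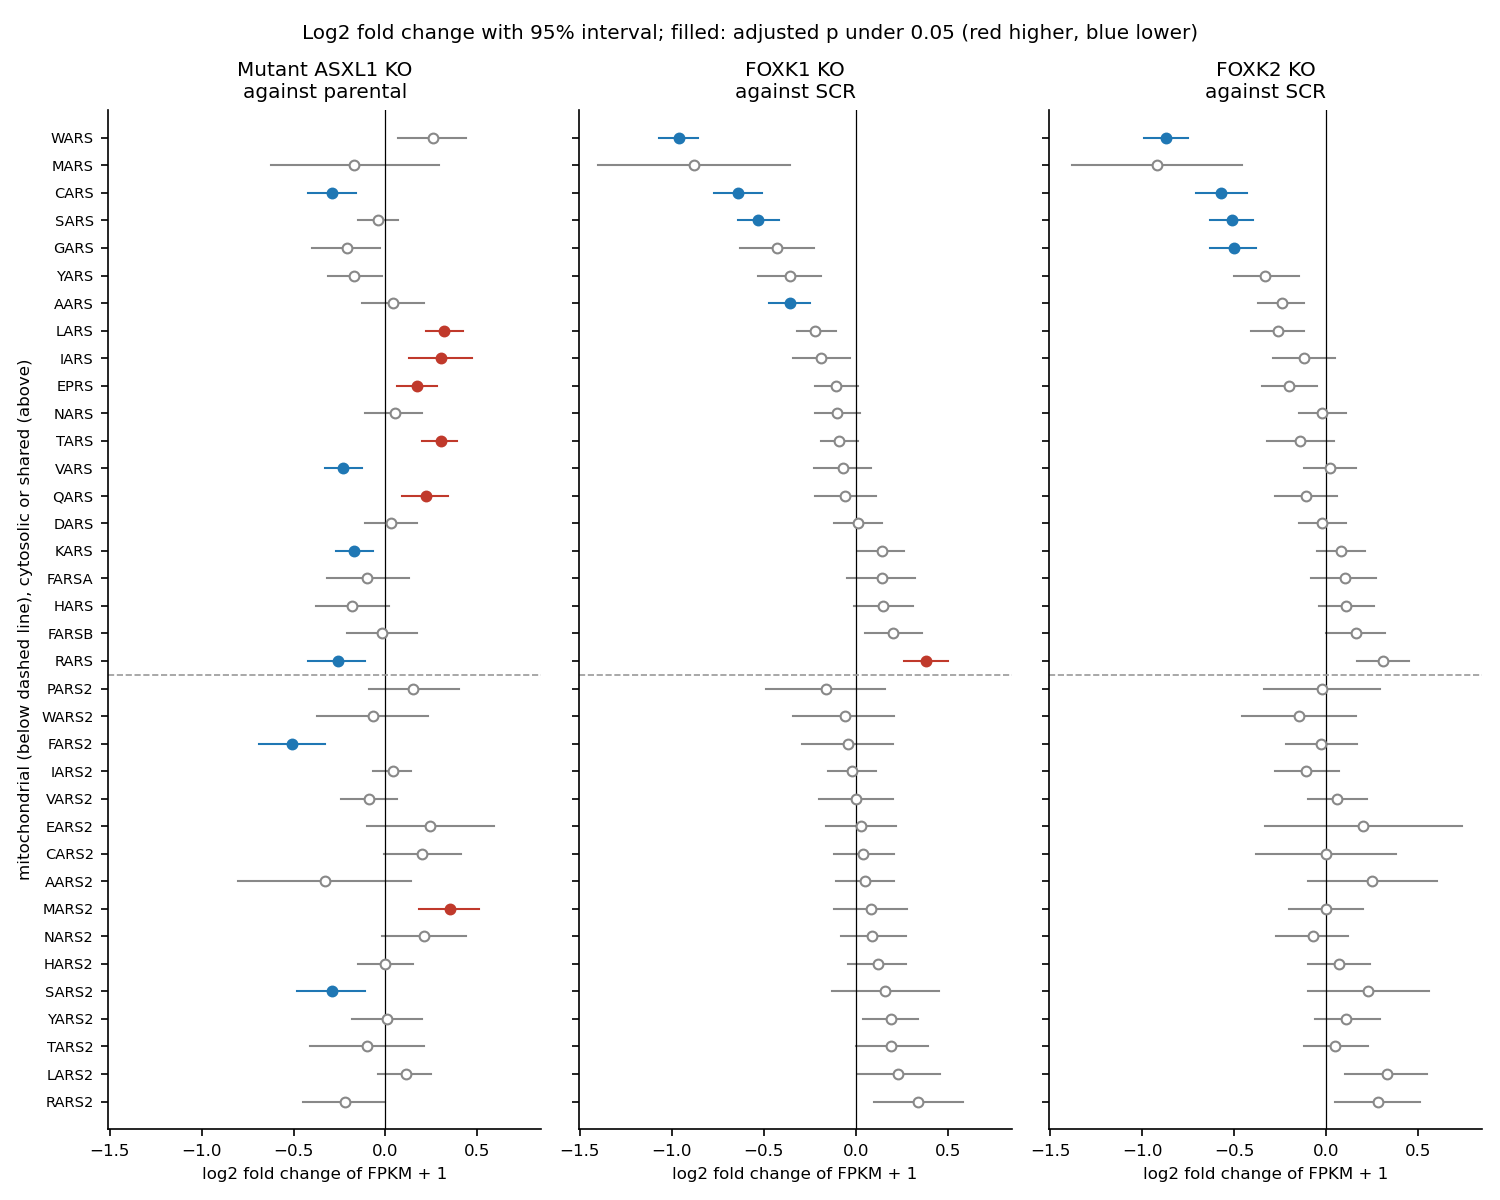
Log2 fold change of FPKM + 1 with its 95% interval for all 36 synthetases in the 3 knockout comparisons, cytosolic or shared members above the dashed line and mitochondrial members below it; filled points passed the test. Calls in the FOXK comparisons are 4 lower and 1 higher and 4 lower and 0 higher, all cytosolic, while the ASXL1 comparison has 6 in each direction.

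Knockout of mutant ASXL1 gave a different pattern, with 6 synthetases higher and 6 lower than in the parental clones. They were at 0.702 to 1.27 times the parental level of FPKM + 1. The enzymes for leucine, threonine, isoleucine, glutamine and glutamate with proline rose, and those for cysteine, valine, arginine and lysine fell, as did 2 of 3 called mitochondrial enzymes. Of 13597 genes tested, 7.91% were called higher and 14.4% lower (22.4% in all). The synthetases' share, 6 of 36 each way, was above the share of genes called higher and close to that called lower; the difference was not tested. The knockout and parental clones did not overlap for 9 higher and 10 lower members, against 16.3% and 26.6% of all genes tested.

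LARS (ENSG00000133706, chromosome 5, 146113038 to 146182660, minus strand), the leucine enzyme that also acts as a leucine sensor for mTORC1, was at 129.4, 132.5 and 131.6 FPKM in the parental clones and at 163.9, 160.6 and 167.4 FPKM in the knockout clones (log2 fold change 0.32, SE 0.04, limma adjusted p = 0.00397). TARS (ENSG00000113407, chromosome 5, 33440696 to 33469539, plus strand), for threonine, was at 199.3, 205.9 and 211.3 FPKM and at 253, 253.8 and 250.3 FPKM (0.30, SE 0.04, limma adjusted p = 0.00486). In both genes every knockout clone was above every parental clone by more than the spread of either group. IARS, for isoleucine, was at 119.1, 111.4 and 111.6 FPKM and at 138.4, 129.9 and 154.3 FPKM (0.30, SE 0.07, limma adjusted p = 0.0273), with the third knockout clone the highest.

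QARS, for glutamine, was at 304.2, 309.9 and 281.3 FPKM in the parental and at 363.1, 334.8 and 342 FPKM in the knockout clones (log2 fold change 0.22, SE 0.05, limma adjusted p = 0.0327). EPRS was at 145.8, 148 and 143.3 FPKM and at 158, 162.7 and 170.6 FPKM (0.17, SE 0.05, limma adjusted p = 0.0429). The groups did not overlap in either gene, but the step was small. LARS, IARS, QARS and EPRS are 4 of the 8 members of the multisynthetase complex, and RARS and KARS of the same complex fell.

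RARS was at 62.65, 67.5 and 71.93 FPKM in the parental and at 53.8, 56.44 and 57.3 FPKM in the knockout clones (log2 fold change -0.26, SE 0.06, limma adjusted p = 0.0303). KARS (chromosome 16, 75627474 to 75648643, minus strand) was at 233.6, 239.8 and 247.8 FPKM and at 212.9, 216.3 and 209.7 FPKM (-0.17, SE 0.04, limma adjusted p = 0.0286). The remaining cytosolic falls were outside the complex. CARS went from 92.42, 93.89 and 89.03 FPKM to 75.99, 70.77 and 77.69 FPKM (-0.29, SE 0.05, limma adjusted p = 0.0126), and VARS (chromosome 6, 31777518 to 31795953, minus strand), for valine, from 176.6, 183.7 and 186.3 FPKM to 155.5, 158.7 and 151.9 FPKM (-0.23, SE 0.04, limma adjusted p = 0.0135). CARS was the 1 member that fell in all 3 comparisons, and RARS fell here and rose with FOXK1 knockout.

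Among mitochondrial enzymes, FARS2 (ENSG00000145982, chromosome 6, 5261044 to 5829192, plus strand), for phenylalanine, had the largest change of any member in this comparison. It was at 16.05, 16.21 and 14.67 FPKM in the parental clones and at 10.13, 11.33 and 10.58 FPKM in the knockout clones (log2 fold change -0.51, SE 0.08, limma adjusted p = 0.00651), 0.702 of the parental level of FPKM + 1. MARS2 (chromosome 2, 197705369 to 197708387, plus strand), the methionine enzyme and a gene of 1 exon, went from 11.59, 10.75 and 11.83 FPKM to 14.81, 14.54 and 14.91 FPKM (0.35, SE 0.07, limma adjusted p = 0.0156). In both genes the 3 clones of each group stood together and apart from the other group.

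SARS2, for serine, went from 37.37, 40.32 and 33.79 FPKM to 29.68, 29.07 and 31.54 FPKM (log2 fold change -0.29, SE 0.08, limma adjusted p = 0.0387). It is uncertain as a gene, because 46.2% of its exon bases are shared with AC011455.2 on the same strand and 10.8% with MRPS12 on the opposite strand. The other 13 mitochondrial members did not pass the test, and the class median was 0.01. WARS, at 450, 479.7 and 498.2 FPKM in the parental and at 613.3, 507.4 and 590.2 FPKM in the knockout clones, did not pass either (0.26, limma adjusted p = 0.0557), although all 3 knockout clones were higher.

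The ASXL1 counts depended on single clones and on scaling. Higher and lower calls were 2 and 1 without the second parental clone, 2 and 2 without the first or without the third knockout clone, 4 and 4 without the third parental clone, 5 and 3 without the second knockout clone, and 4 and 6 without the first parental clone. LARS, TARS and FARS2 were called in all 14 alternative settings, CARS in 13, MARS2 in 11, VARS in 10 and IARS in 7. RARS, QARS and EPRS were called in only 5, KARS in 4 and SARS2 in 3; none of these 5 was called without a variance trend, and KARS, RARS and SARS2 were not called with median-ratio scaling. With median-ratio scaling the members were 7 higher and 3 lower, and over all genes 51% of calls were higher in place of 35.4%. The authors' deposited table calls 10 members higher and 7 lower in this comparison, where it calls 16.3% and 16.7% of the genes tested here. Among mitochondrial members that table has 5 higher (CARS2, EARS2, LARS2, MARS2 and NARS2) and 2 lower (FARS2 and SARS2), against 1 and 2 here. In it LARS and TARS have smaller log2 fold changes, 0.18 and 0.16, WARS is called at 0.24, and KARS and EPRS are not called.

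By group, the ATF4-described members had a median log2 fold change of 0.04 with ASXL1 knockout and 4 rises and 2 falls among 13. The 7 other cytosolic members had a median of -0.10 with 1 rise and 2 falls, against a median of -0.06 over all genes. In that comparison 7.91% of all genes tested were called higher and 14.4% lower. The group counts were not tested against these shares. The difference between knockouts was tested directly, each taken against its own control. WARS separated them most: the ASXL1 effect exceeded the FOXK1 effect by 1.22 (SE 0.11, limma adjusted p = 0.000522) and the FOXK2 effect by 1.13 (SE 0.11, limma adjusted p = 0.000916) on the log2 scale. Against FOXK1, 8 members had a higher effect in the ASXL1 clones (WARS, LARS, SARS, IARS, AARS, TARS, CARS and EPRS) and 4 a lower one (RARS, RARS2, FARS2 and KARS), where 5.71% and 10.1% of 14769 genes did.

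Against FOXK2 it was 9 higher and 6 lower, where 5.68% and 8.35% of 14747 genes were called. The higher ones were WARS, LARS, SARS, TARS, IARS, EPRS, MARS2, QARS and CARS, and the lower ones RARS, SARS2, RARS2, FARS2, KARS and VARS. The 8 members higher against FOXK1 are all in the ATF4-described group and the 4 lower ones are outside it, but against FOXK2 this did not hold: QARS (0.32) and MARS2 (0.34), outside the group, were higher, and VARS (-0.25), inside it, was lower. A fall in the FOXK pools itself raises these differences. The group was put together with such falls of ATF4-pathway genes known, so this sorting is not independent evidence. WARS, LARS, SARS, TARS and RARS kept these differences in all 17 alternatives of either test. The differences for LARS were 0.54 and 0.58, for SARS 0.49 and 0.47, for TARS 0.38 and 0.43, and for RARS -0.64 and -0.57. SARS itself did not pass the test in the ASXL1 comparison, at 267.6, 267.1 and 255.3 FPKM in the parental and 259.8, 246.4 and 262.8 FPKM in the knockout clones. Counts of these differences varied with the libraries used: without 1 library they were 4 to 8 and 1 to 6 against FOXK1, and 4 to 9 and 1 to 6 against FOXK2. The 2 experiments also differ in that one used clones and the other pools, which cannot be told apart from the knockouts compared.

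The partners of the synthetases were read from lists of other genes. Over all genes tested, 7.91% were called higher and 14.4% lower with ASXL1 knockout, and 1.83% and 1.02% in all with FOXK1 and FOXK2 knockout. Counts in these lists were not tested against those shares. Of 15 genes that assist or correct charging, 3 rose and 3 fell with ASXL1 knockout and none was called in either FOXK comparison. AIMP2, a scaffold of the multisynthetase complex, rose from 24.9 ± 2.63 to 33 ± 1.18 FPKM (SD, n = 3 and 3; log2 fold change 0.40, limma adjusted p = 0.0206), and GATC and QRSL1, subunits of the mitochondrial glutamyl-tRNA amidotransferase, rose by 0.41 and 0.33. EEF1E1, the third scaffold, fell from 162 ± 4.49 to 139 ± 8.12 FPKM (-0.22, limma adjusted p = 0.0347), and the peptidyl-tRNA hydrolase gene PTRH2 and the pseudogene PRORSD1P fell. Of 8 elongation factor genes, EEF1G rose and the mitochondrial TUFM fell with ASXL1 knockout (0.20 and -0.32), and none was called in the FOXK comparisons.

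Genes that sense uncharged tRNA or follow ATF4 were also read, and several fell in the FOXK pools. The list was chosen with falls of ATF4-pathway genes in these pools already known, so these falls are not independent evidence. Over all genes tested, 1.15% were called lower with FOXK1 and 0.87% with FOXK2 knockout, and 7.91% higher and 14.4% lower with ASXL1 knockout. Of 11 tested, 5 fell with FOXK1 knockout (ATF5, ASNS, CHAC1, TRIB3 and SESN2), 3 with FOXK2 knockout (ATF5, ASNS and TRIB3) and none rose, while the ATF4 transcript, at 463 ± 23.3 FPKM with SCR, 398 ± 8.87 with FOXK1 and 410 ± 10.8 with FOXK2 knockout (SD, n = 2 each), was not called. In the ASXL1 clones TRIB3, SESN2 and DDIT3 rose (0.95, 0.75 and 0.71) and ASNS fell (-0.21). CHAC1 was the only gene of this list to differ between the FOXK2 and FOXK1 pools, by 1.38 (limma adjusted p = 0.0169); no synthetase did. Among the K562 markers, HBA1, HBA2, HBG1 and HBG2 rose with FOXK1 knockout (0.61 to 0.86). With FOXK2 knockout these globin genes had log2 fold changes of 0.57 to 0.75. Both FOXK2 pools were above both SCR pools, as for 29.2% of all genes tested, but none was called (HBG2, limma adjusted p = 0.0531). BCR and ABL1 rose and GATA1 and KLF1 fell with ASXL1 knockout. Markers of other cell types also moved with ASXL1 knockout: EPCAM rose from 73.7 ± 2.41 to 95.8 ± 7.52 FPKM (SD, n = 3 and 3; 0.37, limma adjusted p = 0.0115) and CD3D fell from 56.8 ± 8.88 to 39.3 ± 2 FPKM (SD, n = 3 and 3; -0.51, limma adjusted p = 0.0194). The part of these markers in the synthetase results was not tested.

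Some members cannot be read wholly apart from a neighbour. HARS and HARS2, for cytosolic and mitochondrial histidine, start head to head on chromosome 5 and overlap by 437 bases. Neither was called by limma in any comparison: HARS ran from 69.87 to 99.23 FPKM and HARS2 from 21.44 to 25.39 FPKM over the 12 libraries. VARS2 shares 22% of its exon bases with GTF2H4 on the same strand. The listed pseudogene copies of members reached at most 0.062 FPKM.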

How the data were processed

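Per the labels' protocols, TruSeq libraries of total RNA were sequenced from both ends on an Illumina instrument. The submitters' processing notes name TopHat, Bowtie, RSEM, edgeR, Cufflinks and build GRCh38.p10, with no role or version for each. The FPKM of each library, and the log2 fold change, fold ratio, p-value and adjusted p-value of each comparison, are as deposited by the authors; the unit of the levels is FPKM per the file headers. The deposited FPKM of a library were whole multiples of 1 step of 0.009503 to 0.010365 (99.99% to 100% of the values between 5 and 60 FPKM, within 0.00055 FPKM; 10.03% to 11.9% with a wrong step). They look like values rounded to 2 decimals and then multiplied by 1 factor per library, 0.9503 to 1.0365, and the 12 factors multiply to 1.0, so the tables look scaled together. The steps are not reads: depth is unknown, no counts were used, and no counting interval is given. The SCR values were identical in both FOXK tables.

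Genes were kept when the number of libraries at 1 FPKM or more was no smaller than the smaller group and were fitted as log2(FPKM + 1) with limma 3.58.1 in R 4.3.3 (variance trend, not robust, two-sided), each knockout with its own control only; differences between knockouts used joint fits. All 36 members passed the filter in every comparison. Adding 1 shrinks the fold change of low genes. P-values were adjusted over all genes tested. The scripts were tested on simulated data. Gene positions are from GENCODE 29, promoters from RefSeq GRCh38.p14 by symbol. In 37 of the 39 member windows the direction was checked against GENCODE transcripts; 2 were not found there. Members called in a knockout comparison are named in full, other members by range and count; MARS and some uncalled values were added after they were seen. The members and lists were chosen with earlier results of these data known, and library factors were undone as an alternative added after seeing the data. Other alternatives were a pseudocount of 0.1, no filter, 2 scalings, no trend, a replicate block, joint fits and leaving out each library.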

Additional observations from a re-analysis of the deposited data

How the results depend on the processing

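Over 744 alternative values of single called members, 479 kept sign and call, 265 kept the sign and lost the call, and 0 changed sign; the causes were not tested. ASXL1 counts (6 higher, 6 lower) became 3 higher with no filter, no variance trend or a replicate block, and 3 lower with median-ratio scaling, no trend, the block or the library factor undone (56.4% of all calls then higher); leaving out 1 clone gave 2 to 5 higher and 1 to 6 lower. FOXK1 counts (1 higher, 4 lower) became 0 and 1 with no filter, no trend or the block, and 7 lower in a joint fit of 12 libraries. FOXK2 counts (0 higher, 4 lower) became 0 lower with no filter or no trend, 1 lower with the block, and 1 higher in joint fits of 6 pools or 12 libraries. Leaving out 1 pool gave 0 to 0 in each direction for both, where the lone sample is assumed to vary like its comparison group. ASXL1 minus FOXK1 effects (8 higher, 4 lower) became 4 and 1 with the block, and 4 to 8 and 1 to 6 without 1 library. ASXL1 minus FOXK2 effects (9 higher, 6 lower) became 4 and 1 with the block, 2 lower with median-ratio scaling or no trend and 1 lower with the factor undone, and 4 to 9 and 1 to 6 without 1 library. FOXK2 minus FOXK1 stayed at 0 members throughout the settings run. Group sums moved by more than 1 SD with median-ratio scaling to 3171 FPKM (SCR, cytosolic) and, mitochondrial, to 400.8 (mutant ASXL1 knockout), 401.7 (FOXK1) and 406.4 FPKM (FOXK2), and with upper-quartile scaling to 390.1 and 418.9 FPKM (mutant ASXL1 knockout and FOXK2, mitochondrial). Replicate numbers did not pair libraries: deviations of same-numbered libraries correlated across genes at -0.07, 0.08 and -0.08 (ASXL1, 1 of 3 best with its own number), -0.13 (FOXK1) and -0.05 (FOXK2). With 2 pools a group and no counts, small changes of low members such as PARS2 and WARS2 were not detectable here.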
